A study of Mus musculus with 12 samples.

Results

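The genes described here are those of cytochrome P450 families 2, 3 and 4 on a mouse whole-genome array. Members were taken by name: every gene whose single symbol in the array annotation starts with Cyp2, Cyp3 or Cyp4 followed by a letter, without Cyp2f2. That gave 52 of 18194 genes with a single symbol, 34 in family 2, 5 in family 3 and 13 in family 4, of which 2 are annotated as transcribed pseudogenes. Where a gene had several probe sets (groups of short probes for one transcript), the one with the highest mean over the arrays stood for it.

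Expression was measured in whole lung of male A/J mice, a strain prone to airway hyperresponsiveness, aged 8 to 10 weeks by the labels, on day 4 after PM exposure. There were 4 groups of 3 arrays, 12 in all, with 3 animals per group by the methods. Control animals received PBS. OVA animals were sensitized to ovalbumin (0.4 mg/kg into the abdominal cavity on day 0) and challenged with it through the trachea (30 mg/kg on day 14). PM animals aspirated 50 µl of a 10 mg/ml suspension of particulate matter from Baltimore air, and OVA/PM animals had both exposures, the particles 3 days after the OVA challenge. The p-values measure the spread between these arrays. All values are log2 intensities, on which a difference of 1 is a doubling. Levels of different genes cannot be compared on this scale, since probes differ in brightness.

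The names OVA and PM carried a doubt that bears on every result below. Of 28 printed single-exposure fold changes, all 28 equalled the ratios of linear group means when the names OVA and PM were exchanged, and 4 did so as labelled. The sample descriptions also call every animal a control, against the titles and treatments. Groups are therefore called by their labels. If the names were exchanged, each result for the arrays labelled OVA would belong to PM and the reverse, while Control and OVA/PM would stay. Which naming is right was not settled here.

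P450 enzymes are heme proteins of the endoplasmic reticulum that insert an oxygen atom into fats, hormones and foreign chemicals, with electrons passed on by a reductase and by cytochrome b5. Families 2 and 3 metabolize mainly drugs, solvents and pollutants, and several family 2 members make epoxides of arachidonic acid. Family 4 enzymes mainly hydroxylate fatty acids and eicosanoids such as leukotrienes. Most of these genes are best known from liver, whereas in mouse lung P450 enzymes are concentrated in club cells, the secretory cells of the small airways, which turn some inhaled toxicants into reactive products.

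Promoter sequences are shown for 4 of the genes that differed from Control in the arrays labelled OVA/PM at an adjusted p under 0.05 in limma. Each line gives the 250 bases before a transcript start in RefSeq (GRCm38.p6), 5′ to 3′ on the strand of the gene. For Cyp4f16 that start lies just inside the annotated gene, so the last bases of its window overlap the gene. Capitals mark matches on either strand to any of 5 motifs searched, none of which overlapped another in these windows. TATAAA is the core promoter box found near many starts. GGGCGG is the box bound by Sp1-type factors. GCGTG is the core of the element of the aryl hydrocarbon receptor. AGGTCA is an element of nuclear receptors. TGANTCA, with N for any base, is a loose form of the site of AP-1 factors. Cyp2b10, Cyp2e1 and Cyp4b1 were lower in those arrays and Cyp4f16 was higher. Of these 4 calls, only that of Cyp4b1 was kept in every fit that left out 1 array. Cyp2d22 had no entry.
Cyp2b10, chr7:25897408-25897657, plus strand: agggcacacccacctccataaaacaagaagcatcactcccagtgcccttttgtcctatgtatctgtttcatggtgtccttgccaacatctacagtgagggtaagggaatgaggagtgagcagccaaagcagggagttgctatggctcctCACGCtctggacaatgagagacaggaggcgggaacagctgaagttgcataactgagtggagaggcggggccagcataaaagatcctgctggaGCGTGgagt
Cyp2e1, chr7:140763569-140763818, plus strand: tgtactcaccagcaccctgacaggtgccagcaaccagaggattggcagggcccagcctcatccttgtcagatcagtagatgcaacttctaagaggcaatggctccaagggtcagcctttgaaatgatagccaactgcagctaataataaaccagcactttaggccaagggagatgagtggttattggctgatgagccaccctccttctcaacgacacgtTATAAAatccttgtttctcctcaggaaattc
Cyp4b1, chr4:115647722-115647971, minus strand: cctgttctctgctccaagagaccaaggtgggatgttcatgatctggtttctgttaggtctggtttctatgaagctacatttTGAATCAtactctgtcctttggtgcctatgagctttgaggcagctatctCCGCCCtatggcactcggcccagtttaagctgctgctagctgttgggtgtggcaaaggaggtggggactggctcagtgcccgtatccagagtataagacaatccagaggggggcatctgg
Cyp4f16, chr17:32536307-32536556, plus strand: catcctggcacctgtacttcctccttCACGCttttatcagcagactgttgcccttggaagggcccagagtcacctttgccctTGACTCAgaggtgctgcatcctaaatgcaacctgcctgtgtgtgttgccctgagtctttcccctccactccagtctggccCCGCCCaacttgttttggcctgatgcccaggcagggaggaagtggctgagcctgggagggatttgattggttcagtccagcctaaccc

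No motif was found in all 3 of the genes with lower expression. Cyp2b10 held the aryl hydrocarbon receptor core at 2 places, and Cyp2e1 held TATAAA close to its start. Cyp4b1 held the Sp1-type box and the loose AP-1 motif, as TGAATCA. Cyp4f16 held the Sp1-type box, the aryl hydrocarbon receptor core and the AP-1 motif, as TGACTCA. Entries were found for 39 of the 52 members and for 9 of the 10 expressed in lung, described next. Of those 9, the Sp1-type box was in 6 (32.97% of 32536 windows of that length over all genes), the aryl hydrocarbon receptor core in 4 (28.35%), the AP-1 motif in 2 (6.73%), TATAAA in 1 (12.31%) and the nuclear receptor element in 0 (14.04%). A match is a description of letters, not a measured binding site.

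A gene was counted as expressed where all 3 arrays of at least 1 group reached 4.93, the median of all values on the arrays. By that rule 10 of the 52 members were expressed, and all 10 reached the level in each of the 12 arrays. They were 6 members of family 2 (Cyp2b10, Cyp2d22, Cyp2e1, Cyp2j6, Cyp2j9 and Cyp2s1) and 4 of family 4 (Cyp4b1, Cyp4f16, Cyp4f18 and Cyp4v3). Of the 5 family 3 members 0 were expressed. At a stricter level, the 75th percentile of all values (8.65), 7 of the members were expressed.

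The other 42 members lay under the level, which does not show that their transcripts were absent. In 36 of them no array reached it. Cyp4f39 reached it in Control replicate 3 (5.41) and PM replicate 1 (5.11). The members of family 2 under the level in all 12 arrays were Cyp2a12, Cyp2b9, Cyp2b13, Cyp2b19, Cyp2c23, Cyp2c37, Cyp2c38, Cyp2c39, Cyp2c50, Cyp2c54, Cyp2c55, Cyp2c65, Cyp2c68, Cyp2c70, Cyp2d12, Cyp2d13, Cyp2d26, Cyp2d34, Cyp2d40, Cyp2g1, Cyp2j5, Cyp2j11, Cyp2j13, Cyp2r1 and Cyp2u1. In family 3 these were Cyp3a13, Cyp3a16 and Cyp3a44. In family 4 they were Cyp4a12a, Cyp4a14, Cyp4a31, Cyp4f13, Cyp4f14, Cyp4f15, Cyp4f41-ps and Cyp4x1.

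One Control array stood apart through liver-type P450 genes, which are named here after their values were seen. In Control replicate 1, Cyp3a11, a main drug-metabolizing P450 of mouse liver, measured 9.36, against 1.11 to 1.17 in the other 11 arrays. Cyp3a25 measured 8.47 there and 2.24 to 2.35 elsewhere. Cyp2c29 measured 7.02 there and 2.24 to 2.30 elsewhere. The same array was highest, by at least 1 on the log2 scale over each other array, for 7 members, of which 5 reached the level, and no other array was so for any member. Over all probe sets at the level, 111 stood apart in this way in Control replicate 1 and 3 to 48 in each of the other arrays. The other 4 were Cyp2d9, Cyp2d10, Cyp2d26 and Cyp2c70, the last an enzyme of bile acid synthesis. Cyp2d9 measured 6.67 there and 3.16 to 3.53 elsewhere. Cyp2d10 measured 5.87 there and 2.58 to 2.73 elsewhere, while Cyp2d26 (4.28) and Cyp2c70 (3.46) stayed under the level there too.

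Markers of hepatocytes, the main cells of liver, were high in the same array. All 7 markers on the array reached the level in Control replicate 1, and 0 of 7 did in any other array. Their summed intensity was 14.32 on the log2 scale in that array and 5.18 to 5.42 in the other 11. Albumin (Alb) measured 13.38 there and 2.64 to 3.39 elsewhere, and transthyretin (Ttr) measured 12.28 there. Why hepatocyte transcripts were in this array was not tested. Cyp2e1, which liver also expresses strongly, was highest in it as well. Calls and counts against Control below are therefore also given without Control replicate 1 where they changed.

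**Figure D1:**
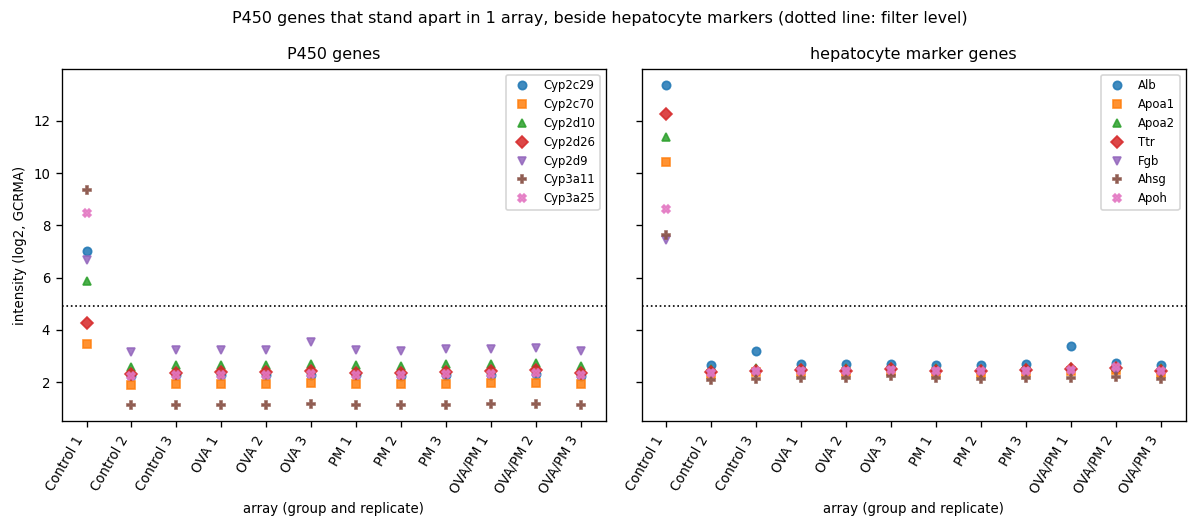
Log2 intensity in each of the 12 arrays (horizontal axis) of the 7 P450 genes that stood apart in 1 array (left) and of 7 hepatocyte markers (right). The dotted line is the level of 4.93, and all of these markers lie above it in Control replicate 1 and below it in the other 11 arrays.

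The expressed genes were compared between groups with limma. In the arrays labelled PM, 0 of the 10 differed from Control at an adjusted p under 0.05, beside 0.0719% of 22246 probe sets tested. An unadjusted p under 0.05 was found for 1 of the 10, beside 1810 of the 22246 probe sets. In the arrays labelled OVA, 1 rose and 2 fell, beside 19.2% of 22498 probe sets called (8.68% higher and 10.5% lower). In the arrays of both exposures, 1 rose and 4 fell, beside 21.7% of 22538 (10.9% higher and 10.9% lower). Arrays without overlap with Control were higher for 1 and lower for 0 of the 10 genes in the PM group (6.87% and 7.1% of all probe sets), higher for 2 and lower for 4 in the OVA group (20.8% and 25.6%), and higher for 3 and lower for 5 in the OVA/PM group (21.3% and 23.2%). The median log2 difference of the 10 genes from Control was -0.01 in the PM arrays (0.03 over all genes tested), -0.49 in the OVA arrays (0.00) and -0.39 in the OVA/PM arrays (0.01). Leaving out Control replicate 1 left 1 call in the OVA arrays (5.72% of all probe sets) and 2 in the OVA/PM arrays (12.7%).

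**Figure D2:**
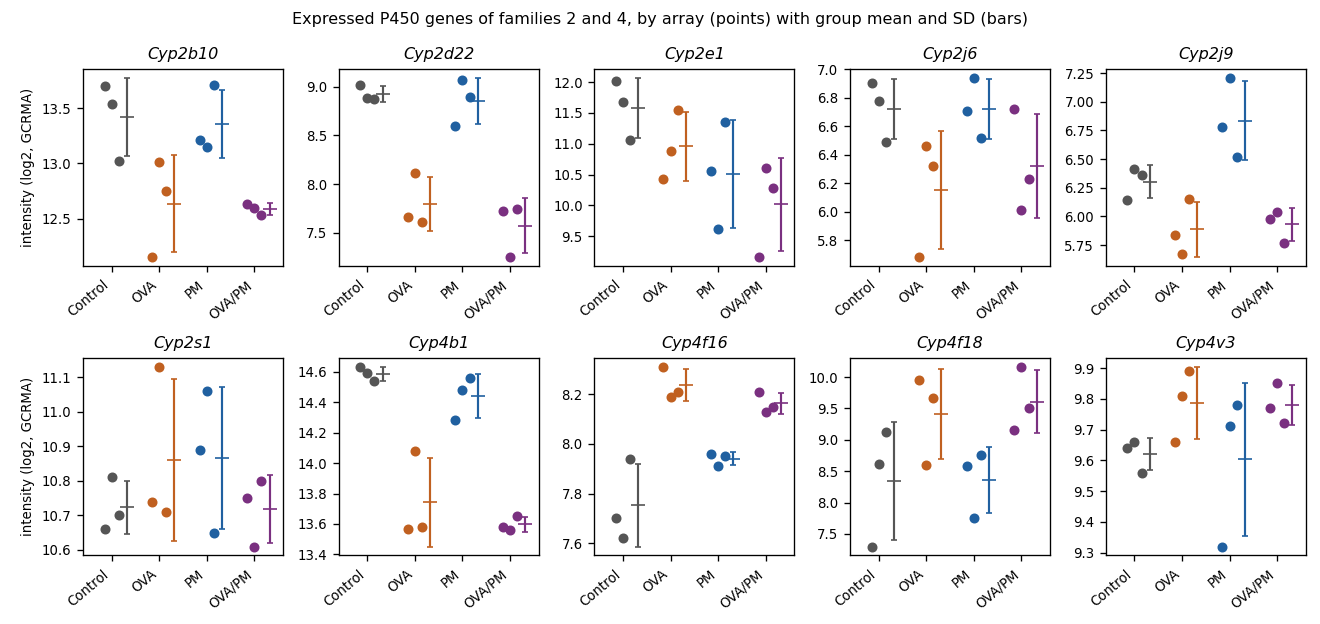
Log2 intensity of the 10 expressed P450 genes in the 4 groups, with 1 point per array and bars for the mean and SD of 3 arrays. Scales differ between panels. Cyp2b10, Cyp2d22 and Cyp4b1 lie lower in all 3 OVA and all 3 OVA/PM arrays than in any Control or PM array. For Cyp2b10 the gap is narrow (highest OVA array 13.01, lowest Control array 13.02).

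Cyp2d22, a member of the 2D subfamily whose human relative CYP2D6 metabolizes many drugs, was the most clearly reduced family 2 gene. It measured 9.02, 8.88 and 8.87 in the Control arrays and 8.60, 9.07 and 8.89 in the PM arrays. It measured 7.66, 8.11 and 7.61 in the OVA arrays and 7.72, 7.25 and 7.75 in the OVA/PM arrays. The OVA and OVA/PM arrays lay below every Control and PM array, without overlap. The fall from Control was 2.19-fold in the OVA arrays (log2 difference -1.13, SE 0.15, limma adjusted p = 0.0125). In the OVA/PM arrays it was 2.56-fold (log2 difference -1.35, SE 0.16, limma adjusted p = 0.0031). With Control replicate 1 left out the log2 differences were -1.08 (limma adjusted p = 0.0413) and -1.30 (adjusted p = 0.0138). The OVA call was lost without OVA replicate 3 or Control replicate 2 (limma adjusted p up to 0.0547). Its second probe set gave -1.12 and -1.53 with all arrays. The PM arrays differed from Control by -0.07 (SE 0.14).

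Cyp4b1, a fatty acid hydroxylase that is abundant in lung and activates plant toxicants such as 4-ipomeanol, showed the same order of groups. It measured 14.63, 14.59 and 14.54 in the Control arrays and 14.28, 14.48 and 14.56 in the PM arrays. It measured 13.57, 14.08 and 13.58 in the OVA arrays and 13.58, 13.56 and 13.65 in the OVA/PM arrays. The OVA and OVA/PM arrays again lay below every Control and PM array. The difference from Control was -0.84 in the OVA arrays (SE 0.15, limma adjusted p = 0.0215). With both exposures it was -0.99 (SE 0.08, limma adjusted p = 0.00113), a 1.99-fold lower level. When Control replicate 1 was left out, the OVA difference was -0.82 and no longer passed (limma adjusted p = 0.0624), while the OVA/PM difference was -0.97 (adjusted p = 0.00637). The OVA call was also lost without OVA replicate 1, OVA replicate 3 or Control replicate 2 (limma adjusted p up to 0.0837).

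Cyp2b10, a phenobarbital-inducible gene and target of the constitutive androstane receptor, fell in the OVA/PM arrays. It measured 13.70, 13.54 and 13.02 in the Control arrays, 13.21, 13.15 and 13.71 in the PM arrays, 12.15, 13.01 and 12.75 in the OVA arrays and 12.63, 12.60 and 12.53 in the OVA/PM arrays. Every OVA/PM array was below every Control array, and the highest OVA array (13.01) was just under the lowest Control array (13.02). The difference was -0.84 in the OVA/PM arrays (SE 0.18, limma adjusted p = 0.023). It was -0.79 in the OVA arrays (SE 0.27, adjusted p = 0.0894). Without Control replicate 1 the OVA/PM difference was -0.70 (limma adjusted p = 0.0575), so that the call was lost. It was lost as well without Control replicate 2 or any of the 3 OVA/PM arrays (limma adjusted p up to 0.0849). The other 2 probe sets of the gene differed by -0.85 and -1.07 in the OVA/PM arrays with all arrays (limma adjusted p = 0.0229 and 0.0283). The Cyp2b10 probe set used, like that of Cyp4v3, has a name that marks probes shared by several transcripts, and close relatives in the 2b cluster may contribute to it.

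Cyp2e1, which oxidizes ethanol, benzene and other small solvents, was lowest on average in the OVA/PM arrays and had the widest spread of the 10 genes within the PM arrays and within the OVA/PM arrays. It measured 12.02, 11.67 and 11.06 in the Control arrays, 10.43, 10.89 and 11.55 in the OVA arrays, 10.56, 9.62 and 11.36 in the PM arrays and 9.16, 10.61 and 10.28 in the OVA/PM arrays. The OVA/PM arrays lay below all Control arrays, and both single exposures overlapped with Control. Its OVA/PM difference was -1.57 (SE 0.42, limma adjusted p = 0.0428), a 2.97-fold lower level. Without Control replicate 1, the array with hepatocyte transcripts, that difference was -1.35 and did not pass (limma adjusted p = 0.117). The call also ended without Control replicate 2, OVA/PM replicate 1 or OVA/PM replicate 3 (limma adjusted p up to 0.124, differences -1.87 to -1.14). The PM arrays differed from Control by -1.07 (SE 0.47, 95% confidence interval -2.20 to 0.06, limma adjusted p = 0.627), or by -0.85 without Control replicate 1.

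The 2j genes encode enzymes that form epoxides or hydroxy products of arachidonic acid. Cyp2j9 measured 6.14, 6.41 and 6.36 in the Control arrays, 5.84, 5.67 and 6.15 in the OVA arrays, 6.78, 7.21 and 6.52 in the PM arrays and 5.98, 6.04 and 5.77 in the OVA/PM arrays. The PM arrays were highest, and the OVA/PM arrays lay under all Control arrays (difference -0.37, SE 0.12, limma adjusted p = 0.0695, and -0.46 without Control replicate 1). Cyp2j9 was the only expressed member that lay higher in all PM arrays than in all Control arrays (difference 0.53, SE 0.19, limma adjusted p = 0.562), and 6.87% of all probe sets tested were separated in that direction. Cyp2j6 ranged from 5.68 to 6.94 over the 12 arrays, and only its OVA arrays (up to 6.46) lay clear of Control (from 6.49). Its differences from Control were -0.57 (SE 0.23) in the OVA arrays and -0.40 (SE 0.21) in the OVA/PM arrays, neither past the threshold. Its second probe set stayed between 5.98 and 6.15 in every array, so both readings of this gene did not move alike.

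Cyp4f16, of a subfamily that hydroxylates fatty acids and leukotrienes, was the 1 gene of the 10 that rose past the threshold. It measured 7.70, 7.62 and 7.94 in the Control arrays, 8.31, 8.19 and 8.21 in the OVA arrays, 7.96, 7.91 and 7.95 in the PM arrays and 8.21, 8.13 and 8.15 in the OVA/PM arrays. The OVA and OVA/PM arrays lay above every Control and PM array, and the PM arrays overlapped with Control. It was higher by 0.48 in the OVA arrays (SE 0.11, limma adjusted p = 0.0321) and by 0.41 in the OVA/PM arrays (SE 0.11, adjusted p = 0.0422), the latter 1.33-fold. Neither passed without Control replicate 1 (0.46 and 0.38, limma adjusted p = 0.0869 and 0.119). The OVA call was also lost without OVA replicate 1, OVA replicate 3 or Control replicate 2 (limma adjusted p up to 0.103), and the other without Control replicate 2 or any OVA/PM array (up to 0.145).

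Cyp4f18, which inactivates the neutrophil attractant leukotriene B4 and is expressed by neutrophils, had the widest spread of the 10 in the Control arrays. It measured 7.30, 8.61 and 9.12 there, 9.96, 8.60 and 9.67 in the OVA arrays, 8.58, 7.76 and 8.75 in the PM arrays and 9.16, 10.16 and 9.51 in the OVA/PM arrays. Control replicate 1 was the lowest array of all, and every OVA/PM array lay above every Control array. The difference from Control was 1.27 in the OVA/PM arrays (SE 0.49, limma adjusted p = 0.115) and 1.06 in the OVA arrays (SE 0.55, adjusted p = 0.204), so neither passed. They were 0.75 and 0.54 without Control replicate 1. The second probe set of Cyp4f18 measured 2.26 to 2.41 over the 12 arrays, under the level, and was not tested. Neutrophil markers varied as well. The summed level of 6 markers was 13.13 to 15.47 in the Control arrays, 14.27 to 16.33 in the OVA arrays, 12.61 to 13.36 in the PM arrays and 14.59 to 15.76 in the OVA/PM arrays. Lcn2 was the highest of the 6 in every OVA and OVA/PM array, so it led those sums. Its mean was 11.73 in the Control arrays, 14.85 in the OVA arrays and 14.71 in the OVA/PM arrays. The median log2 difference from Control of the 5 markers tested was -0.45 in the OVA arrays and -0.56 in the OVA/PM arrays. The part of neutrophils in the Cyp4f18 values was not tested.

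Cyp2s1, an epithelial P450, and Cyp4v3, the mouse counterpart of human CYP4V2, a fatty acid hydroxylase, moved least. Cyp2s1 ranged from 10.61 to 11.13 over the 12 arrays. Its difference from Control was between -0.00 in the OVA/PM arrays (95% confidence interval -0.24 to 0.23) and 0.14 in the others. Cyp4v3 ranged from 9.32 to 9.89, and its differences were 0.17 in the OVA arrays (95% confidence interval -0.05 to 0.39) and 0.16 in the OVA/PM arrays (-0.05 to 0.37). Both groups lay above all Control arrays, though in the OVA group by less than rounding shows (the lowest OVA and the highest Control array both measured 9.66). Changes beyond these intervals were not seen, and smaller ones could not be detected with 3 arrays a group.

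**Figure D3:**
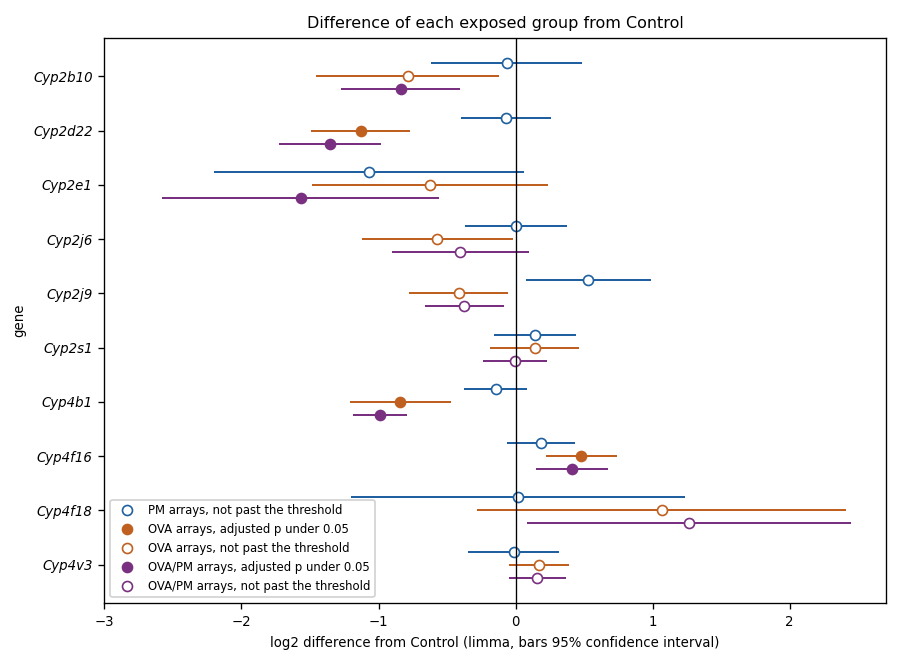
Log2 difference from Control of the 10 expressed P450 genes in the arrays labelled PM, OVA and OVA/PM, with 95% confidence intervals from limma. Filled points have an adjusted p under 0.05; they are Cyp2d22, Cyp4b1 and Cyp4f16 in the OVA arrays, the same 3 with Cyp2b10 and Cyp2e1 in the OVA/PM arrays, and none in the PM arrays.

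The exposed groups were also compared with each other. Between the OVA/PM and OVA arrays 0 of the 10 genes passed in limma, beside 0.13% of 22379 probe sets. An unadjusted p under 0.05 was found for 0 of the 10, beside 1965 of the 22379 probe sets. The second probe set of Cyp2d22 differed by -0.41 there (SE 0.13, limma adjusted p = 0.491). All its OVA/PM arrays (up to 6.98) lay below its OVA arrays (from 7.21). Against the PM arrays, 4 of the 10 were lower in the OVA/PM arrays, beside 5.77% of 22428 probe sets lower. These were Cyp2d22 (-1.28, SE 0.18, limma adjusted p = 0.00905), Cyp2j9 (-0.91, SE 0.19, adjusted p = 0.0267), Cyp4b1 (-0.84, SE 0.10, adjusted p = 0.00538) and Cyp2b10 (-0.77, SE 0.16, adjusted p = 0.0273). None of these values uses a Control array. The call of Cyp2b10 was lost without PM replicate 1 or any OVA/PM array (limma adjusted p up to 0.0816), and that of Cyp2j9 without PM replicate 1, PM replicate 2 or any OVA/PM array (up to 0.0823). The OVA arrays were lower than the PM arrays for 1 gene, Cyp2d22 (-1.06, SE 0.18, limma adjusted p = 0.0415), beside 1.96% of 22404 lower. That call was lost without OVA replicate 1, OVA replicate 3 or any PM array (limma adjusted p up to 0.167). A fit of all 4 groups asked whether the joint exposure departed from the sum of the single ones on the log2 scale. For that interaction 0 of the 10 genes passed in limma, beside 0.0264% of 22688 probe sets. An unadjusted p under 0.05 was found for 0 of the 10, beside 1412 of the 22688 probe sets.

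Genes that work with or beside these enzymes were measured on the same arrays. Of 8 genes tested that supply electrons or heme to P450 enzymes, or break heme down, 0 changed in the PM arrays, 1 rose and 1 fell in the OVA arrays, and 1 rose and 3 fell in the OVA/PM arrays. The rise was in Hmox1, the inducible heme oxygenase that degrades heme (1.47 in the OVA arrays, SE 0.33, limma adjusted p = 0.0337; 1.40 in the OVA/PM arrays, SE 0.25, adjusted p = 0.0129). Pgrmc1, a heme-binding partner of P450 enzymes, fell by 0.56 in the OVA arrays and by 0.59 in the OVA/PM arrays. Cytochrome b5 (Cyb5a) fell by 0.44 in the OVA/PM arrays and its reductase Cyb5r3 fell by 0.36 there. Cyb5b, Cyb5r1, Pgrmc2 and Alas1, the first enzyme of heme synthesis, did not pass in any of the 3 comparisons. The counts without Control replicate 1 were 0 in the OVA arrays, and 1 higher and 1 lower in the OVA/PM arrays.

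Of 9 genes tested from other P450 families, with the club cell gene Cyp2f2 among them, 0 changed in the PM arrays, 1 rose and 1 fell in the OVA arrays, and 2 rose and 2 fell in the OVA/PM arrays. In the OVA/PM arrays Cyp7b1, an oxysterol hydroxylase, rose by 1.60 (SE 0.20) and Cyp1b1, a gene of the aryl hydrocarbon response, rose by 1.18 (SE 0.24). Cyp27a1 fell by 0.76 (log2 difference -0.76, SE 0.14) and Cyp2f2, which activates naphthalene in club cells, fell by 0.55 (log2 difference -0.55, SE 0.08). Cyp1a1, another gene of the aryl hydrocarbon response, averaged 8.3 in the Control arrays, 8.445 in the PM arrays, 6.99 in the OVA arrays and 7.68 in the OVA/PM arrays. It did not pass in any of the 3 comparisons and is named after its values were seen. Leaving out Control replicate 1 gave 0 calls in the OVA arrays, and 1 rise and 2 falls in the OVA/PM arrays. Of 13 receptors and transcription factors tested that control P450 genes, 0 rose in any of the 3 comparisons. There 1 fell in the OVA arrays (Ahr, -0.36, SE 0.10) and 1 in the OVA/PM arrays (Ppara, -1.19, SE 0.26), and both calls were lost without Control replicate 1. The constitutive androstane receptor gene Nr1i3 lay between 1.97 and 2.07 in all 12 arrays, under the level, and is named after its values were seen.

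Of 17 other oxidative enzymes of drug metabolism tested, 0 changed in the PM arrays, 4 fell in the OVA arrays and 6 fell in the OVA/PM arrays, with 0 rises. Examples in the OVA/PM arrays are the microsomal epoxide hydrolase Ephx1 (-1.01, SE 0.15), the flavin monooxygenase Fmo1 (-0.89, SE 0.14) and the aldehyde oxidase Aox1 (-0.92, SE 0.16). Of 8 carboxylesterases and paraoxonases tested, 0 changed in the PM arrays, 1 fell in the OVA arrays and 4 fell in the OVA/PM arrays, among them Ces1g (-2.98, SE 0.51) and Pon1 (-1.32, SE 0.10). Of 4 conjugation enzymes tested, 0 changed in the PM arrays, 1 rose and 1 fell in the OVA arrays and 1 fell in the OVA/PM arrays, the sulfotransferase Sult1d1 (-1.38, SE 0.13). Of 11 eicosanoid enzymes tested, 0 changed in the PM arrays, 2 rose in the OVA arrays and 3 in the OVA/PM arrays, with 0 falls. The last were Pla2g4a, the phospholipase that releases arachidonic acid (0.85, SE 0.13), Ptges (1.05, SE 0.28) and Tbxas1 (1.34, SE 0.36). Without Control replicate 1, the counts in the OVA arrays were 0 falls for the oxidative enzymes, 0 for the esterases, 0 for the conjugation enzymes and 1 rise for the eicosanoid enzymes. In the OVA/PM arrays they were 4 falls, 2 falls, 1 fall and 2 rises.

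In whole lung, fewer cells of a type and less RNA per cell cannot be told apart, so cell type markers were read beside the P450 genes. The summed level of 8 club cell markers, one of them Cyp2f2, was 17.37 to 17.43 in the Control arrays, 17.34 to 17.44 in the OVA arrays, 17.29 to 17.51 in the PM arrays and 17.23 to 17.34 in the OVA/PM arrays. All 3 OVA/PM sums lay under all Control sums. The sum is dominated by Scgb1a1, the secretoglobin that defines club cells, which measured 15.85 to 16.11 over the 12 arrays, near the top of the scale, so a change in the other markers shows little in it. Of those 8, 1 rose (Scgb3a1) and 1 fell in the OVA arrays. The latter was Cyp2f2, itself a P450 gene and counted above. In the OVA/PM arrays 1 rose and 2 fell, Cyp2f2 among them (without Control replicate 1, the falls were 0 in the OVA and 1 in the OVA/PM arrays). Of 8 alveolar type 1 markers 4 fell in the OVA arrays and 6 in the OVA/PM arrays, with sums of 16.92 to 17.03 in the Control arrays and 16.45 to 16.50 in the OVA/PM arrays. Of 8 endothelial markers 5 fell in the OVA arrays and 7 in the OVA/PM arrays, with sums of 15.61 to 15.72 in the Control arrays and 14.86 to 14.99 in the OVA/PM arrays. Macrophage markers moved the other way: 6 of 7 rose in both groups and 0 in the PM arrays, with sums of 12.13 to 12.50 in the Control arrays and 14.56 to 14.84 in the OVA/PM arrays. Leaving out Control replicate 1, the falls in the OVA/PM arrays were 4 of 8 type 1 and 5 of 8 endothelial markers, and those in the OVA arrays were 0 and 1, while macrophage markers rose in 5 of 7 (OVA arrays) and 6 of 7 (OVA/PM arrays). The part of these shifts in the P450 values was not tested.

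**Figure D4:**
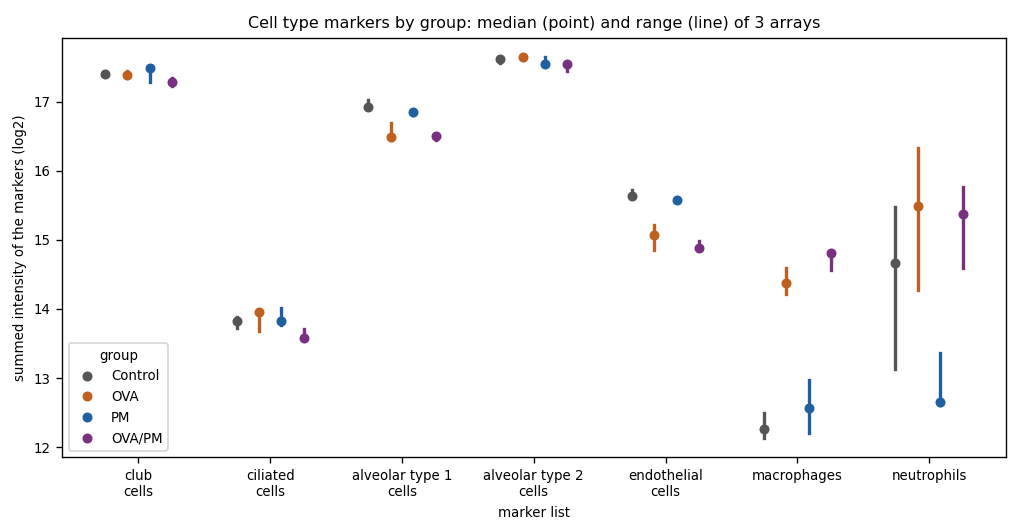
Summed intensity (log2) of the markers of 7 cell types in the 4 groups, with the median as a point and the range of 3 arrays as a line. Club cell sums lie between 17.23 and 17.51, with all OVA/PM arrays under all Control arrays, endothelial and alveolar type 1 sums are lower in the OVA and OVA/PM arrays, and macrophage sums are higher there.

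The remaining marker lists complete the picture of the arrays. In the PM arrays, where none of the P450 genes passed, 3 of 6 goblet cell markers tested rose, and in the OVA and OVA/PM arrays 5 of 5 and 7 of 7 did. These counts do not rank the size of the rise. Goblet cell sums were 9.39 to 9.69 in the Control arrays and 11.52 to 12.37 in the OVA arrays. They were 14.49 to 15.37 in the PM arrays and 15.30 to 15.47 in the OVA/PM arrays. Between the OVA and PM arrays, 2 goblet cell markers were lower in the OVA arrays and 0 were higher. Of 8 ciliated cell markers, 0 changed in the PM arrays, 3 rose in the OVA arrays, and 3 rose and 1 fell in the OVA/PM arrays. Of 7 alveolar type 2 markers 1 fell in the OVA/PM arrays and 0 changed in the others. T cell markers rose in 3 of 5 tested (OVA arrays) and 4 of 6 (OVA/PM arrays), and B cell markers in 2 of 6 and 3 of 6. Of 5 neutrophil markers tested 1, Lcn2, rose in each of those groups, and the 1 eosinophil marker tested did not pass. The median log2 difference of the 5 neutrophil markers from Control was -0.45 in the OVA arrays and -0.56 in the OVA/PM arrays. Of 8 fibroblast markers 3 rose in the OVA arrays, and 2 rose and 2 fell in the OVA/PM arrays. Of 8 striated muscle markers 4 fell in the OVA/PM arrays, with sums of 13.54 to 14.45 there and 15.06 to 15.86 in the Control arrays, and 0 passed in the OVA arrays. Several of these counts were lower without Control replicate 1. In the PM arrays goblet cell rises were then 2. In the OVA arrays the rises were 4 for goblet, 1 for ciliated, 0 for T and 0 for B cell markers. In the OVA/PM arrays 3 T cell and 2 B cell markers rose, 0 alveolar type 2 markers fell, and 1 fibroblast and 1 striated muscle marker fell.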

How the data were processed

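Total RNA of whole mouse lung was hybridized to Affymetrix arrays of 45101 probe sets, 12 arrays in 4 groups of 3. The values the authors deposited are log2 intensities from GCRMA, which corrects background by probe composition and quantile-normalizes, so that a uniform shift of all genes would be removed. The submitters' notes also name MAS5, and versions were not given in the sources used here. The number of arrays limits the precision, and no 2 of 66 pairs of columns were identical.

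Groups came from sample titles. Pairwise comparisons used limma (3.58.1, under R 4.3.3; moderated linear model, two-sided, Benjamini-Hochberg adjustment over all probe sets kept, threshold 0.05). The 64 control probe sets were left out, and testing required 4.93 in all 3 arrays of a compared group, which stands in for detection calls. All 4 groups were fitted for the interaction. SAM, which the methods also name, was not run. Fits were tested on simulated data.

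Symbols came from the array annotation (34958 probe sets with 1 symbol, 932 with several, 9211 with none), and RefSeq (GRCm38.p6) matched 52 of 52 members. Members had 63 probe sets, and 4 further ones with several symbols of these families were set aside. Named were members called in any test, expressed members that differed from Control by 1 or more, members at the level in all 12 arrays, up to 4 genes per context list by lowest p in OVA/PM against Control, and all tested heme and electron partners. Members and lists were chosen with earlier results of these data known. Alternatives were no filter, a filter at 8.65, an offset of 16 on the linear scale, quantile normalization, a replicate block, the probe set with the lowest p, 1 fit of all groups and leaving out each array. List counts without Control replicate 1 were added after the data were seen.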

Additional observations from a re-analysis of the deposited data

How the results depend on the processing

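The falls of Cyp2d22 and Cyp4b1 in the OVA/PM arrays, against Control and against the PM arrays, kept their calls in all 6 fits that left out 1 array and under every other alternative that could be run for them. The other calls were each lost in 2 to 5 of 6 such fits. Leaving out 1 array gave 0 to 3 called genes for OVA against Control (1.81% to 23.3% of all probe sets called). It gave 2 to 5 for OVA/PM against Control (9.68% to 19.8%). Against PM it gave 2 to 4 for OVA/PM (6.08% to 8.29%) and 0 to 3 for OVA (0.0178% to 15.9%). Lone removals that took OVA against Control to 0 were those of OVA replicate 3 (1.81%) and of Control replicate 2 (2.82%). OVA/PM against Control had 2 called genes with no filter (8.5%). OVA against PM had 0 with no filter (0.00888%) and 2 with further quantile normalization (6%). It had 4 with all 4 groups in 1 fit (14.5%).

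Replicate numbers did not pair the arrays: 3 of 18 same-number pairs had deviations correlated over 0.1 (median -0.06). With the replicate block, 0 genes were called for OVA against Control (0.396% of all probe sets) and 3 for OVA/PM against Control (15.3%). For OVA against PM 2 were called (3.17%).

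Small differences without a call changed sign. Cyp4v3 in the PM arrays was 0.10 by the probe set with the lowest p, and Cyp2s1 in the OVA/PM arrays was 0.00 after further quantile normalization. Over fits that left out 1 array, differences of the PM arrays from Control ranged from -0.26 to 0.08 for Cyp2b10, -0.18 to 0.06 for Cyp2d22, -0.12 to 0.10 for Cyp2j6, -0.50 to 0.41 for Cyp4f18 and -0.10 to 0.13 for Cyp4v3. That of Cyp2s1 in the OVA/PM arrays ranged from -0.04 to 0.05. The causes were not tested.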
